A study of Mus musculus with 12 samples.

Results

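Abat, Pglyrp2, Sytl2, St3gal2, Prkd2, Mpp4, Pacs2 and Il17re are 8 mouse genes of unlike function that were chosen from these arrays by their higher signal after treatment with the chemokine CCL1. None of them is on the list used here of targets and feedback genes of the kinase ERK. The genes were represented by 16 probe sets (sets of short probes read as 1 value) among 22626 on the array, counting each probe set whose annotation gives that 1 symbol. A filter on low signal was passed by 13 of the 16, with at least 1 probe set for each gene, and by 13575 probe sets of the array in all. Because the CCL1 arrays chose the genes, their signal with CCL1 is described below without a test, and members are tested only in the comparisons of IL-9, of Dex and of array number. All arrays of those comparisons also served the choice, which does not by itself fix their direction.

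The cells were BW5147, a mouse thymic T lymphoma line, and total RNA was taken after 8 h. The 6 groups were Dex with CCL1, CCL1 alone, Dex with IL-9, IL-9 alone, Dex alone and unstimulated cells, with 2 arrays each, numbered 1 and 2. Dex is dexamethasone, a synthetic glucocorticoid that kills thymic lymphoma cells, given at 100 ng/ml, and the cytokines IL-9 and CCL1 were given at 100 U/ml. All groups share 1 line grown in serum, and nothing in the labels says that the 2 arrays of a group came from separate cultures, so p-values here reflect the scatter of 2 arrays that may be technical repeats. In such bulk RNA, a change in the share of cells that express a gene and a change per cell cannot be told apart.

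CCL1 binds Ccr8, a G protein-coupled receptor of T cells that signals through inhibitory G proteins and the Ras and ERK kinases. Dusp6, a phosphatase that switches ERK off and is itself induced by ERK, is a usual readout of that route. IL-9 acts instead through the JAK kinases and STAT factors, and both cytokines are known to protect this lymphoma from death in Dex. The 8 genes lie outside the classical ERK feedback loop. They serve amino acid breakdown (Abat), bacterial wall digestion (Pglyrp2), vesicle and membrane sorting (Sytl2, Pacs2), sialic acid transfer (St3gal2), diacylglycerol signalling (Prkd2), membrane scaffolding (Mpp4) and cytokine reception (Il17re).

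Values are signals of the MAS5 algorithm on a linear scale, and differences are of log2(signal + 16), which understates changes of low signals. The mean signal of every array after trimming 2% at each end lay close to 100.0, which would hide any shift common to the whole array. The array CCL1 2 was deposited in a table of its own, under another platform record than the other 11 arrays. The labels give no reason. Every comparison below that includes CCL1 2 therefore crosses the 2 records, and the part of this in the values was not tested. Of the list of T cell markers, the line carried Ptprc, Thy1, Lat and Cd3g at mean signals of 2579, 1101, 945 and 592. Cd247, Cd2, Cd5 and Trat1 of the same list had means of 3.85, 3.75, 2.31 and 2.19 and did not pass the filter. Of 11 T cell markers on the array 7 passed the filter, against 0 of 7 B cell markers and 3 of 8 myeloid markers, the highest of which had a mean of 13.6. Summed over the list, B cell markers reached 17.4 to 50.6 in CCL1 arrays, 15.6 to 17 in IL-9 arrays and 18.1 to 26.7 in arrays without cytokine. Myeloid markers summed to 36.2 to 51.1 in CCL1 arrays, 39.5 to 43.9 in IL-9 arrays and 32.0 to 56.2 in arrays without cytokine. The part of other cell types in the results was not tested. The arrays labelled no Dex and numbered 1 stood against their label: the centred mean log2 level of 10 glucocorticoid targets was 0.10 to 0.32 in the 6 Dex arrays, 0.19 to 0.34 in the 3 no-Dex arrays numbered 1, and -0.80 to -0.75 in the 3 no-Dex arrays numbered 2. The main results that rest on these 3 arrays are therefore also given without them.

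The reference table of promoters (RefSeq, GRCm38.p6, 250 bases before to 50 after a gene's start) held 7 windows for 5 of the genes, Pglyrp2, Prkd2, Mpp4, Pacs2 and Il17re. Abat, Sytl2 and St3gal2 were not matched. Each window was searched on both strands for the glucocorticoid half-site AGAACA, the NFAT core TTTCC, the ETS site CCGGAAG, the GC box GGGCGG, the AP-1 site TGACTCA, the cAMP response element TGACGTCA, the E-box CACGTG, the EGR site GCGGGGGCG and the TATA box TATAAA. None of these motifs contains another. A match describes letters, not a bound site. The windows of 4 genes are printed, chosen by the signals of these genes and not by their letters. A link of the letters to either treatment was not tested. Pglyrp2 had the highest CCL1 difference among genes with a window, and Prkd2 and Mpp4 had no overlap between CCL1 and other arrays. Pacs2 was the member that differed with Dex in the arrays numbered 2. Capitals mark every match to a motif.
Pglyrp2, chr17:32420926-32421225, minus strand: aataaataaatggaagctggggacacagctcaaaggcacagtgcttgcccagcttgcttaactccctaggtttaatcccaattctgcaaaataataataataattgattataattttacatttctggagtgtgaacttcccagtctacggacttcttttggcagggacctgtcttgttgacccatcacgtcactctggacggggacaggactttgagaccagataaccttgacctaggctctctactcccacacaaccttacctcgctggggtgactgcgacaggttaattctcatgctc
Prkd2, first window, chr7:16842652-16842951, plus strand: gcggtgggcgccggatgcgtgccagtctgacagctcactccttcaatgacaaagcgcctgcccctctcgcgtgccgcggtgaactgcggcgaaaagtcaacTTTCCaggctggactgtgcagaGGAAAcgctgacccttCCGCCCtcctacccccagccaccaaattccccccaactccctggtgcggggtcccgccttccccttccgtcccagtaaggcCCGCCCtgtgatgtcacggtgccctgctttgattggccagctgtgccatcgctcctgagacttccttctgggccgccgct
Mpp4, first window, chr1:59163340-59163639, minus strand: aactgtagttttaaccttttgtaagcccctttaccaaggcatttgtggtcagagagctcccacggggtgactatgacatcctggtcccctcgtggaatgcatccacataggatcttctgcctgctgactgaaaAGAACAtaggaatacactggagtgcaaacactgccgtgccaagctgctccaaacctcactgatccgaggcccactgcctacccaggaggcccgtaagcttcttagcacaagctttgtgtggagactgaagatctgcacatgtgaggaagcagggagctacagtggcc
Pacs2, chr12:113014258-113014557, plus strand: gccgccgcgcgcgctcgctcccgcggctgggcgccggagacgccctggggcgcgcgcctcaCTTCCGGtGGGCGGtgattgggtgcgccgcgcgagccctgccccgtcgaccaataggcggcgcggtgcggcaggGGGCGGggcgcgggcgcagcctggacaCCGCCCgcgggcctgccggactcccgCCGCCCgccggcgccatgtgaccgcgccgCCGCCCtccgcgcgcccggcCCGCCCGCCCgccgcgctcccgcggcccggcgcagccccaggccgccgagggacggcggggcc
The windows shared little. Pglyrp2 had no match at all. The GC box, present in 35.7% of the 32851 windows of the table, was found in both Prkd2 windows and in Pacs2, where 7 matches stood in a window of 85.7% G and C. The ETS site, present in 8.86% of all windows, was found in Pacs2 only. The glucocorticoid half-site, in 19.0% of all windows, was found once, in the first Mpp4 window. The NFAT core, in 61.3% of all windows, was found in both Prkd2 windows, the second Mpp4 window and Il17re. No member window held the AP-1 site, the cAMP response element, the E-box, the EGR site or the TATA box, which 5.20%, 1.79%, 7.15%, 2.91% and 13.6% of all windows held.

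With CCL1, 11 of the 13 probe sets past the filter, in 7 of the 8 genes, were higher in each of 8 matched differences, that is in each of the 4 CCL1 arrays against the array without cytokine and against the IL-9 array of the same Dex state and number. Over the whole array 320 of 13575 probe sets, or 2.36%, did so, and 309 were lower in all 8. In 6 probe sets of 5 genes (Abat, Sytl2, St3gal2, Prkd2 and Mpp4) all 4 CCL1 arrays lay above all 8 other arrays, as in 79 probe sets or 0.582% of the array. The genes were picked on this contrast, so nothing is read from either count. Without the no-Dex arrays numbered 1, the same 7 genes had every remaining difference above 0 in the best measured probe set, and the mean differences were 1.18 for Abat, 1.12 for Sytl2, 1.01 for Pglyrp2, 0.94 for Pacs2, 0.78 for St3gal2, 0.73 for Mpp4, 0.71 for Prkd2 and 0.29 for Il17re. By the mean of the 8 differences, the best measured probe set of each gene ranked 3 (Abat), 4 (Sytl2), 7 (Pglyrp2), 10 (Pacs2), 14 (St3gal2), 22 (Mpp4), 29 (Prkd2) and 126 (Il17re) among the 13575. In the signals below, 4 values are given in the order Dex 1, Dex 2, no Dex 1, no Dex 2.

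Abat, the mitochondrial aminotransferase that breaks down the neurotransmitter GABA, gave the clearest separation. Its signal was 134, 128, 158 and 149 in the 4 CCL1 arrays, 44.6, 70.9, 39.5 and 41.8 in the 4 IL-9 arrays, and 44.8, 36.8, 38.7 and 81.5 in the 4 arrays without cytokine. Every CCL1 array was above every other one, and IL-9 and no cytokine overlapped fully. The means were 142 ± 13.7 with CCL1, 49.2 ± 14.6 with IL-9 and 50.5 ± 21.0 without cytokine (SD, n = 4 each), and the 8 matched differences averaged 1.30, from 0.73 to 1.67. A second Abat probe set, 1422226_at, stayed between 0.197 and 8.69 in all arrays, below the filter, and gave a mean difference of -0.15, so that the gene rests on 1 probe set.

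Sytl2, a Rab27 effector that tethers secretory vesicles to the plasma membrane, had signals of 213, 191, 177 and 162 in CCL1 arrays, 59.5, 62.4, 44.6 and 81.6 in IL-9 arrays, and 93.7, 61.2, 109.6 and 123 in arrays without cytokine. The CCL1 arrays lay above all others, and the IL-9 arrays tended to the bottom of the range. The mean signal was 186 ± 21.7 with CCL1, 62.0 ± 15.2 with IL-9 and 96.8 ± 26.4 without cytokine (SD, n = 4 each). The difference of CCL1 from IL-9 averaged 1.38 and that from no cytokine 0.87.

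Pacs2, a sorting protein that also keeps contacts between endoplasmic reticulum and mitochondria, had 332, 239, 276 and 74.2 in CCL1 arrays, 123, 87.6, 114 and 39.6 in IL-9 arrays, and 122, 135, 158 and 60.01 in arrays without cytokine. All 8 matched differences were above 0, from 0.25 to 1.34, with a mean of 0.95. The groups overlapped nevertheless, because the last array of each set, labelled no Dex and numbered 2, was low whatever the cytokine.

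Pglyrp2, a secreted amidase that cuts bacterial peptidoglycan, had 78.5, 61.2, 67.0 and 25.2 in CCL1 arrays, 27.7, 14.1, 25.5 and 14.9 in IL-9 arrays, and 11.1, 24.6, 20.5 and 14.2 in arrays without cytokine. In 3 CCL1 arrays the signal was above all others, while CCL1 2 fell among them, at 25.2 beside 27.7 and 25.5 in IL-9 arrays of another number or Dex state. The 8 differences averaged 1.03, and without CCL1 2 they averaged 1.23. They averaged 1.50 with a pseudocount of 1 and 0.54 with 64, since the unstimulated signal was close to the pseudocount.

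St3gal2 is a sialyltransferase of the Golgi that caps galactose on O-linked sugars and gangliosides. Its best measured probe set, 1421891_at, had 188, 158, 160.5 and 124 in CCL1 arrays, 64.8, 63.6, 54.8 and 68.9 in IL-9 arrays, and 94.8, 119.7, 100.0 and 98.5 in arrays without cytokine. The 3 conditions did not overlap: CCL1 was highest, no cytokine between, and IL-9 lowest. The mean signals were 157 ± 26.2 with CCL1, 63.0 ± 5.90 with IL-9 and 103 ± 11.2 without cytokine (SD, n = 4 each). The other probe sets, 1421890_at and 1421892_at, had mean CCL1 differences of 0.64 and 0.69 beside 0.83 for the first, each with 8 of 8 above 0. All 3 were designed on the same transcript sequence and are not independent of one another.

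Prkd2, a serine and threonine kinase activated by diacylglycerol and protein kinase C downstream of the T cell receptor, was read by 5 probe sets. In 1434334_at, the brightest, the signal was 155, 143, 131 and 96.1 in CCL1 arrays, 82.8, 62.8, 59.2 and 62.5 in IL-9 arrays, and 82.5, 85.6, 93.4 and 63.4 in arrays without cytokine. The CCL1 arrays lay above all others, though the lowest of them, CCL1 2 at 96.1, cleared the highest other array by only 0.03 log2. The mean difference was 0.71 there, 0.65 in 1434333_a_at and 0.74 in 1436589_x_at, all with 8 of 8 above 0. Of these, 1434334_at and 1434333_a_at were designed on the same transcript sequence and are not independent of one another. The remaining probe sets did not share this difference. In 1437509_x_at the mean difference was 0.11 with 4 of 8 above 0, and 1456075_at, below the filter, had -0.03 with 4 of 8.

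Mpp4, a membrane-associated guanylate kinase known as a scaffold of photoreceptor synapses, was low but tightly ordered. Its signal was 38.3, 43.7, 41.7 and 46.5 in CCL1 arrays, 12, 17.6, 12.7 and 14.5 in IL-9 arrays, and 20.4, 28.5, 20.2 and 27.0 in arrays without cytokine. As for St3gal2, CCL1 was highest, IL-9 lowest, and the 3 conditions did not overlap. The differences had the narrowest spread among the best measured probe sets of the 8 genes, 0.96 ± 0.09 against IL-9 and 0.55 ± 0.10 against no cytokine (SD, n = 4 matched pairs each). Near the pseudocount their size depends on it: the mean of 8 was 0.75 with 16, 1.17 with 1 and 0.36 with 64.

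Il17re, the receptor subunit that pairs with Il17ra to bind IL-17C, did not follow its description. Probe set 1452109_at had 19.7, 29.9, 23.0 and 2.01 in CCL1 arrays, 9.20, 10.8, 5.26 and 23.3 in IL-9 arrays, and 4.49, 8.65, 4.0 and 3.59 in arrays without cytokine. With Dex and in number 1 without Dex the CCL1 array was the highest of its set, but in number 2 without Dex CCL1 was lowest and IL-9 highest. Thus 6 of 8 differences were above 0, and their mean was 0.45, or 0.80 without CCL1 2. Probe set 1426566_s_at stayed between 0.376 and 11.9, below the filter, with 3 of 8 above 0.

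**Figure D1:**
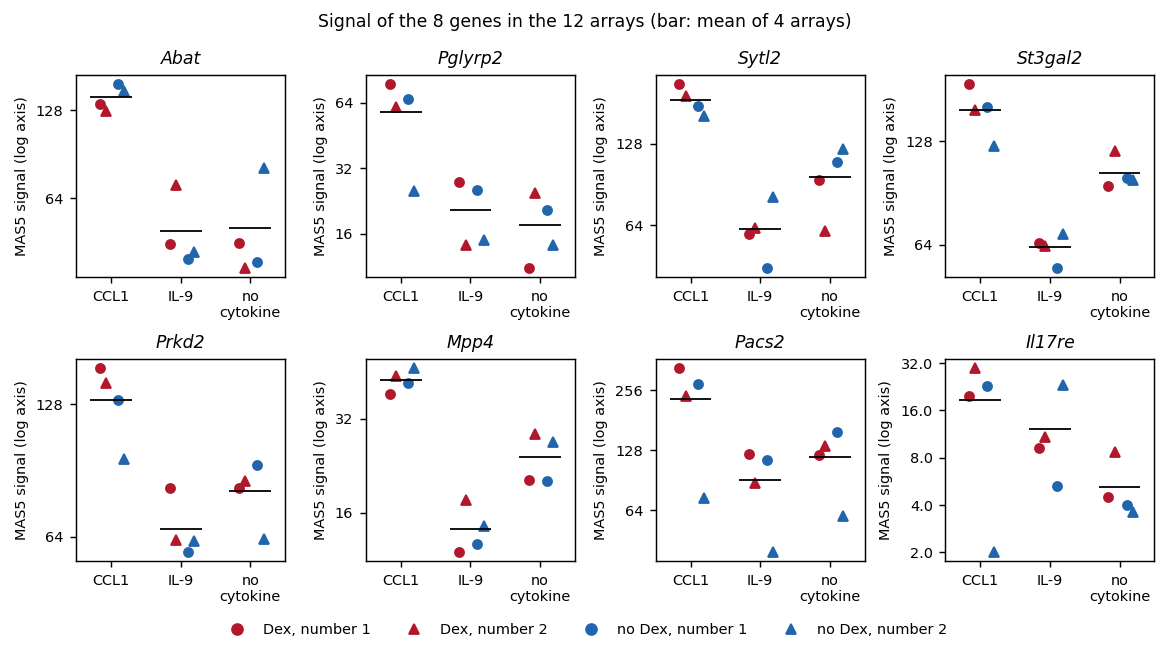
MAS5 signal on a log axis for the best measured probe set of each gene in the 12 arrays, by cytokine, with Dex state in colour, array number by symbol and the mean of 4 arrays as a bar. Abat, Sytl2, St3gal2, Prkd2 and Mpp4 have all CCL1 points above all others, Pacs2 is low in the 3 blue triangles, and Il17re has its lowest point, 2.01, in CCL1 2.

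**Figure D2:**
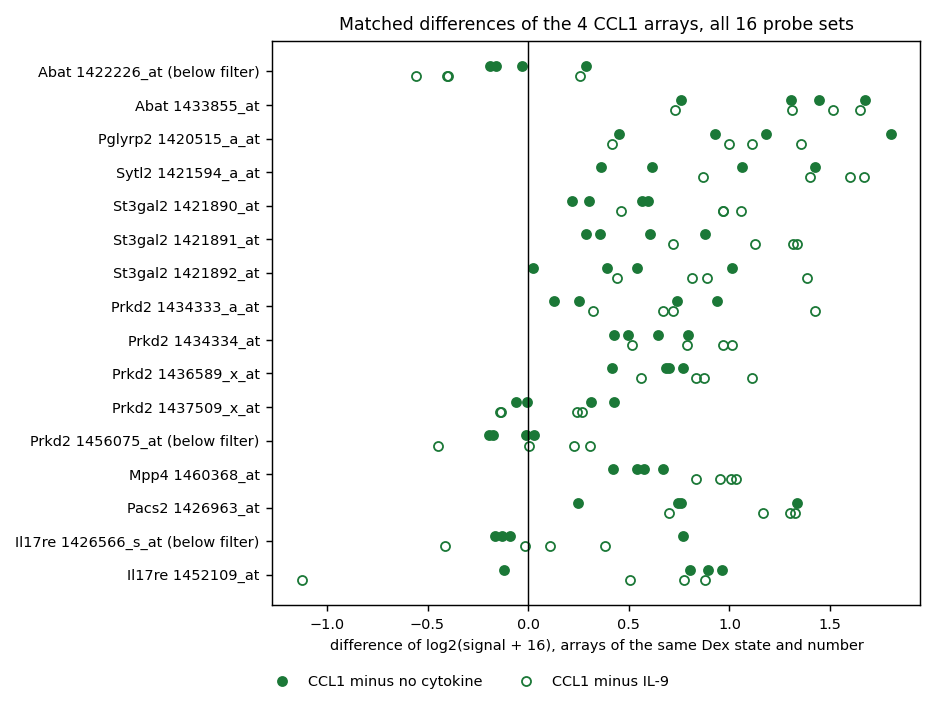
Differences of log2(signal + 16) between each CCL1 array and the array without cytokine (filled) or with IL-9 (open) of the same Dex state and number, for all 16 probe sets. In 11 probe sets all 8 points lie right of 0, and in St3gal2, Mpp4 and Pacs2 the open points lie mostly further right than the filled ones.

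The 8 genes were correlated to unlike degrees over the 12 arrays. Pearson correlations of their log2 values over the 28 pairs were 0.27 to 0.92, with a median of 0.69, the lowest being Mpp4 with Il17re. After the means of each cytokine and of each Dex state and number were taken out, the correlations were -0.54 to 0.95, with a median of 0.40. Over the 9 arrays left without those labelled no Dex and numbered 1, the plain correlations were 0.04 to 0.94, with a median of 0.68. The arrays share cytokine groups on which the genes were picked, so these are descriptions only.

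IL-9 was next set against no cytokine. Both kinds of array were also those that the CCL1 arrays had been compared with when the genes were picked. Every value compared here therefore also served the choice, and the p-values of members are given as description only. None of the 13 tested member probe sets passed the threshold for IL-9 against no cytokine (limma, adjusted p from 0.191 to 0.995), where 0.0958% of the array did, in either direction. As a description, the fitted difference was below 0 in 10 of the 13, and in 52.7% of all 13575 probe sets. The median was -0.27, beside -0.01 over all probe sets. St3gal2 and Prkd2 each supply several of the 13, so these are not separate genes and nothing is read from the count. St3gal2 had the largest, -0.59 (SE 0.13, adjusted p = 0.191 in limma) in 1421891_at, with all 4 IL-9 arrays below their matched control. Its other probe sets had -0.44 and -0.39, again lower in 4 of 4 pairs. Mpp4 was lower in 4 of 4 pairs as well, by -0.40 (SE 0.14, limma adjusted p = 0.486). Sytl2 had -0.52 (SE 0.17, limma adjusted p = 0.440), lower in 3 of 4 pairs. Pacs2 had -0.35 and Prkd2 -0.23 in 1434334_at, also lower in 3 of 4. Abat, the gene most separated by CCL1, had a difference of -0.01 (SE 0.19), and Pglyrp2 and Il17re had 0.12 and 0.38.

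The call for St3gal2 depends on the model and on the arrays, and 21 of its 24 refits stayed short of the threshold. The IL-9 and no-cytokine arrays also served to pick the gene, so nothing is concluded from a pass. With Dex state split by array number in the model, the difference of -0.59 passed in 1421891_at (limma adjusted p = 0.0348), where 0.501% of the array was called lower, and no other member probe set did. Without the array Dex 1 it was -0.67 and passed (limma adjusted p = 0.0242). With the 3 no-Dex arrays numbered 1 left out it was -0.52 and did not (limma adjusted p = 0.970). The same omission gave -0.44 for Mpp4, -0.38 for Sytl2, -0.36 for Pacs2, -0.10 for Prkd2, -0.20 for Abat, 0.08 for Pglyrp2 and 0.61 for Il17re, all with adjusted p of at least 0.970. For Il17re the value rests mainly on IL-9 2, where the signal was 23.3.

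The CCL1 effect with Dex and without it is given as values only, since the CCL1 arrays chose the genes. In the 11 arrays of the larger table the effect without Dex rests on CCL1 1 alone, whose glucocorticoid targets stood at 0.19, within the 0.10 to 0.32 of the Dex arrays. Sytl2 had a CCL1 effect of 1.24 with Dex and 0.55 without, Abat 1.38 with Dex and 1.25 without, and Pglyrp2 1.36 with Dex and 1.32 without. St3gal2 (1421891_at) had 0.62 with Dex and 0.62 without, and Mpp4 had 0.50 with Dex and 0.55 without. Adding CCL1 2 turned the sign for Pacs2 and Il17re. For Pacs2 the difference of the effects, with Dex minus without, was -0.30 in the 11 arrays and 0.55 with CCL1 2 added. For Il17re it was -0.13 in the 11 arrays and 0.43 with CCL1 2 added, and for Pglyrp2 0.04 and 0.55. With the no-Dex arrays numbered 1 left out as well, the effect without Dex is CCL1 2 minus unstimulated 2, that is 1 array against 1. The differences were then 0.80 for Pacs2, 0.97 for Il17re, 0.91 for Pglyrp2 and 0.62 for Abat. For the other members the effects with and without Dex were 1.24 and 0.36 (Sytl2), 0.62 and 0.29 (St3gal2), 0.72 and 0.50 (Prkd2), and 0.50 and 0.54 (Mpp4). Nothing is concluded from these values.

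Dex itself was compared within the arrays numbered 2, where 8 of 10 glucocorticoid targets rose (Tsc22d3, Fkbp5, Per1, Dusp1, Ddit4, Nfkbia, Gpr65 and Bcl2l11, by 0.88 to 1.79). The split by number was made after such targets had been seen at Dex levels in the no-Dex arrays numbered 1. Their rise in number 2 is therefore no separate support for the split. Pacs2 was the 1 member probe set of 13 that passed, against 0.508% of the array called higher. Its signal was 239, 87.6 and 135 in the Dex arrays numbered 2 with CCL1, with IL-9 and without cytokine, against 74.2, 39.6 and 60.01 in the matching arrays without Dex. The 3 no-Dex arrays numbered 2 lay below all 9 others, which ran from 87.6 to 332. The fitted difference was 0.92 (SE 0.16, limma adjusted p = 0.0251). It missed the threshold when any 1 of 5 arrays was left out (limma adjusted p = 0.177 without unstimulated 2, 0.0545 without Dex with IL-9 1, 0.0582 without Dex with CCL1 2, 0.0568 without IL-9 1 and 0.292 without IL-9 2), and also when the 3 no-Dex arrays numbered 1 were left out together (difference 0.89, limma adjusted p = 0.105). With CCL1 2 added it was 1.13 and passed, both with those 3 arrays (limma adjusted p = 0.00382) and without them (0.0199). Other members did not pass: Sytl2 had -0.54 (SE 0.20, limma adjusted p = 0.365), Abat -0.24, Prkd2 0.20, Pglyrp2 0.17, Il17re -0.10, Mpp4 0.06 and St3gal2 (1421891_at) 0.01.

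**Figure D3:**
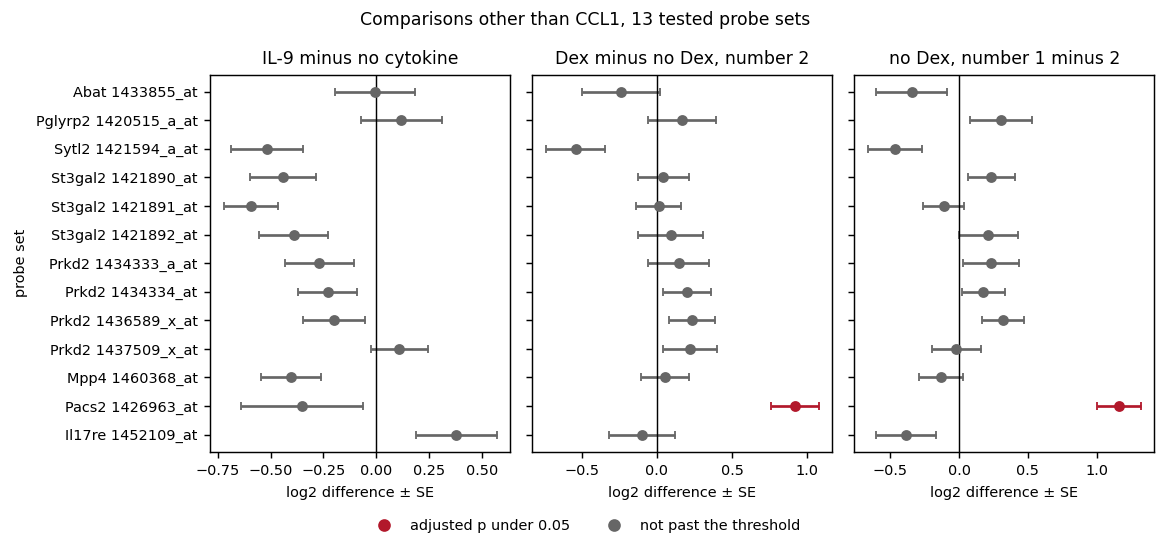
Fitted log2 difference with its standard error for the 13 tested member probe sets in 3 comparisons: IL-9 minus no cytokine, Dex minus no Dex in the arrays numbered 2, and number 1 minus number 2 in the arrays without Dex. Red points passed an adjusted p of 0.05, which Pacs2 did in the panels for Dex and for number.

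The arrays without Dex differed by number in the same gene. Both comparisons rest on the same low no-Dex arrays numbered 2, so they are not separate results. In number 1, Dex minus no Dex was 0.25 with CCL1, 0.09 with IL-9 and -0.34 without cytokine for Pacs2. The low arrays were only those both without Dex and numbered 2, and what made them low was not tested. Pacs2 was higher in number 1 than in number 2 by 1.16 (SE 0.16, limma adjusted p = 0.00325), the only member probe set of 13 to pass, against 0.626% of the array called higher. Without IL-9 2 it missed the threshold (difference 1.10, limma adjusted p = 0.0790). Of the 10 glucocorticoid targets, on which the split by number was based, 7 passed in this direction too. Their part in the Pacs2 difference was not tested. Ccr8, the receptor of CCL1, was low in the same arrays: its signal was 243, 86.9 and 159 in the no-Dex arrays numbered 2 with CCL1, with IL-9 and without cytokine, against 271 to 623 in the other 9. It was higher by 1.48 with Dex in number 2 (SE 0.13, limma adjusted p = 0.000159) and by 1.46 in number 1 over number 2 without Dex. With CCL1 over no cytokine Ccr8 had 0.80 (SE 0.36, limma adjusted p = 0.885), or 0.51 (0.830) with CCL1 2 added and the no-Dex arrays numbered 1 left out. The glucocorticoid receptor Nr3c1 ran from 112 to 314 over the arrays, and Il9r, the receptor of IL-9, from 1.67 to 18.6, near the filter's signal of 6.32.

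**Figure D4:**
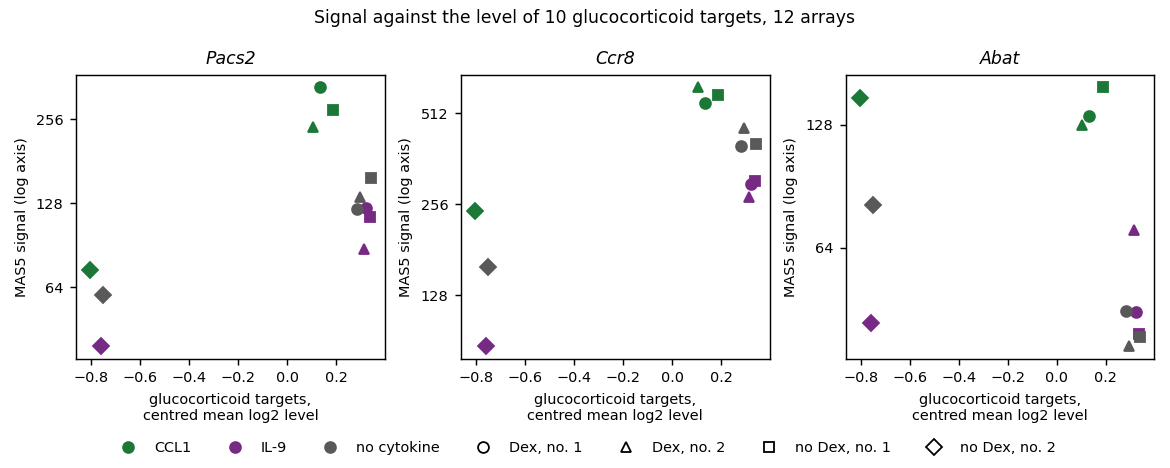
MAS5 signal of Pacs2, Ccr8 and Abat on a log axis against the centred mean log2 level of 10 glucocorticoid targets in the 12 arrays, with cytokine in colour and Dex state and number by symbol. The 3 diamonds, arrays without Dex numbered 2, lie far left and low for Pacs2 and Ccr8, whereas Abat is high in all CCL1 arrays at either level.

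Relatives of the 8 genes in function were taken from lists by function and tested for CCL1 against no cytokine. The lists were drawn up with earlier results of these data known, so the choice was not blind to this contrast. Of the array 0.00737% passed, which is Dusp6 alone (1.50, SE 0.13, limma adjusted p = 0.00141). Dusp6 had 1.57 with CCL1 2 added (limma adjusted p = 0.000115), and 1.70 (0.0189) when the no-Dex arrays numbered 1 were also left out. No relative passed under any of these 3 settings, and in the first 760 of 13575 probe sets had an unadjusted p under 0.05. In that first setting 53.7% of the 13575 had a difference below 0, to be set beside the counts of each list. Beside Abat, the 3 measured genes of GABA metabolism and transport were all below 0, with Aldh9a1, an aldehyde dehydrogenase of GABA synthesis, and Gabarap, a GABA receptor-associated protein of autophagy, at -0.30 each. Beside Sytl2, the 3 Rab27 and effector genes were below 0 too, with Sytl1, a close relative, at -0.68 (SE 0.21, limma adjusted p = 0.610) and Stxbp2, a syntaxin-binding protein of secretion, at -0.22. Beside St3gal2, 5 of 9 sialyltransferase and sialic acid genes were above 0 with a median of 0.00. St8sia4, a polysialyltransferase, had 0.33 and Cmas, which activates sialic acid, had 0.00, while St6gal1, which adds sialic acid to N-linked sugars, had -0.68 (SE 0.16, limma adjusted p = 0.423).

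Beside Prkd2, 4 of 11 genes of diacylglycerol and protein kinase C signalling were above 0, with a median of -0.11. Dgkz, a kinase that removes diacylglycerol, had -0.19 and Rasgrp1, a diacylglycerol-activated exchange factor for Ras, had 0.02. Hdac7, a deacetylase that protein kinase D exports from the nucleus in thymocytes, had -0.73 (SE 0.19, limma adjusted p = 0.496). Beside Mpp4, 3 of 10 scaffold genes were above 0, with a median of -0.07, Mpp6 at 0.17 and Lin7c, a partner of such scaffolds, at 0.09. Beside Pacs2, 7 of 12 genes of sorting and mitochondrial contact were above 0, with a median of 0.01, Vdac1, a pore of the mitochondrial outer membrane, at 0.01 and Hspa9, a mitochondrial chaperone, at 0.03. Beside Il17re, the 4 measured genes of the interleukin-17 receptor list were below 0, Il17ra at -0.15 and Traf3ip2, an adaptor of these receptors, at -0.07. Pglyrp2 had 1 measured relative, Lyz2, the macrophage lysozyme, at -0.08. The median over all probe sets was -0.02, with 53.7% of them below 0. In the ERK list 12 of 14 genes were above 0, with a median of 0.18. Only Dusp6 passed, and Myc had 0.03 and Ier2 0.29. With CCL1 2 added and the no-Dex arrays numbered 1 left out, 10 of the 14 were above 0, with a median of 0.17, and of the relatives Sytl1 had -0.44, St6gal1 -0.55 and Hdac7 -0.68 (limma adjusted p of at least 0.823).

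The genes most like the members over the 12 arrays were ranked by Pearson correlation with the mean of the 8 scaled member profiles. Pde7a, a phosphodiesterase of cyclic AMP in T cells, came first (r = 0.94), followed by Tnk2 (0.92), a nonreceptor tyrosine kinase, Tle3 (0.91), a transcriptional corepressor, Tmsb4x (0.91), the actin-binding thymosin, and Dusp6 (0.90). Stk39, Coro1a, Phlda3, Dgka and Hacd3 followed at 0.89 to 0.90. Each of the 10 had all 8 matched CCL1 differences above 0, with means of 0.36 for Hacd3 to 1.77 for Dusp6. Over the array 2.36% of probe sets did so. The member profile was high with CCL1 by choice, so the ranking itself brings such genes to the top and nothing is read from this. Coro1a is an actin regulator of lymphocytes, and Dgka, the diacylglycerol kinase that limits signals reaching Prkd2 and Rasgrp1, stood on the Prkd2 list (CCL1 over no cytokine 0.51, SE 0.18, limma adjusted p = 0.764). Of probe sets of no member, 73 had all CCL1 arrays above all others. With the members these were 79 of 13575, or 0.582%, while 58 had all CCL1 arrays below all others. The widest gaps between the lowest CCL1 array and the highest other one were those of Dusp6 (1.23 log2), Tuba8 (0.81), Usp18 (0.58), Tmsb4x (0.39) and Coro1a (0.38). Beside these, the gap was 0.56 for Abat, 0.36 for Sytl2 and 0.28 for Mpp4.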

How the data were processed

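The 12 samples were biotin-labelled total RNA on Affymetrix arrays, in 6 groups of 2 by their descriptions. The deposited tables held linear signal intensity values made with MAS5, per the submitters' processing notes, in 2 tables of 11 arrays and 1 array, joined on probe set. For MAS5 no version, and no later step, is given in the sources used here. After removal of 64 control probe sets, 22626 remained. Values were set to log2(signal + 16), and 13575 probe sets with a mean above the 40th percentile (a signal of 6.32) were tested. Symbols came from the platform annotation (20380 probe sets with 1 symbol, 691 with several, 1555 with none).

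The members and the gene lists were chosen with earlier results of these data known. Linear models in limma 3.58.1 (R 4.3.3) used the 11 arrays of the larger table, with an intensity trend, and p-values were adjusted by the Benjamini-Hochberg method across the 13575 probe sets at a threshold of 0.05. CCL1 2 was left out because it was deposited apart, under another platform record than the other 11 arrays. CCL1 without Dex therefore rested on 1 array assumed to vary like the other groups. IL-9, CCL1 and the CCL1 effect by Dex were fitted with 1 mean per group. Dex within number 2 and number within no Dex were fitted with Dex by number and cytokine as terms. Matched CCL1 differences used all 12 arrays and no test. The probe set with the highest mean stood for each gene. Named genes were all members, the treatment receptors and Dusp6, of each list those past the threshold and the 2 others with the highest mean signal, the 10 most correlated genes, and the 5 widest gaps. St6gal1 and Hdac7 were named after their values were seen. The fits were tested on simulated data. Same-numbered arrays of different groups deviated together by correlations of -0.01 to 0.35, and within a Dex state by 0.18 to 0.35, over only 2 numbers, so the number was not used as a block in the main fits. Pseudocounts, filters, scalings, the trend, blocks and arrays left out were varied.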

Additional observations from a re-analysis of the deposited data

How the results depend on the processing

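With 12 arrays and 2 per group, small effects could not be seen, and CCL1 without Dex rested on 1 array in the fits. Of 519 refits of the 24 tested member results, 507 kept their side of the threshold. The direction changed in 22 of these, all with an adjusted p of at least 0.653 in limma. Of the 12 that changed, 3 brought St3gal2 past the threshold for IL-9 and 9 took Pacs2 below it. The cause was not tested.

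Pacs2 for Dex in number 2 was 0.59 (limma adjusted p = 0.0603) with a pseudocount of 64 and 0.97 (0.0628) with separate cytokine effects. Of 140 alternative values of the matched CCL1 means, 134 lay within 1 SD, 5 moved with the pseudocount (for Abat to 0.87 with 64, the others are given with the genes), and the second Abat probe set reversed its mean to -0.15. The count of 7 genes with all 8 differences above 0 was 6 to 7 under the alternatives and 7 to 8 with 1 array left out.

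The arrays share only a number, and the main fits of the cytokines assumed no pairing. The matched differences did pair arrays by Dex state and number. Each CCL1 array enters them both against no cytokine and against IL-9. With number as a replicate block, 18 probe sets were called for IL-9, 1 for CCL1 and 0 for the CCL1 effect by Dex. With a replicate block by Dex state, 111 were called for IL-9 (13 without) and 44 for CCL1 (1 without), and St3gal2 passed for IL-9 (-0.59, limma adjusted p = 0.0348). With CCL1 2 added as well, a combination chosen after seeing the data, the counts were 143 and 108. Adding CCL1 2 alone gave 3 for CCL1, and 199 for number 1 over 2 without Dex (108 without). Leaving out the no-Dex arrays numbered 1, also chosen after seeing the data, gave 6 for IL-9 whether or not CCL1 2 was added, and 33 for Dex in number 2 (75 with CCL1 2 added). Without a filter, Dex in number 2 called 44 (81 with it) and number 65. With separate cytokine effects the counts were 43 and 65.

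With 1 array left out in turn, the counts ran from 5 to 358 for IL-9, 1 to 66 for CCL1, 0 to 101 for the CCL1 effect by Dex, 29 to 116 for Dex in number 2 and 46 to 217 for number without Dex. The highest of the first 3 were without Dex 1. The CCL1 comparisons could not be made without CCL1 1.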
